A study of Mus musculus with 11 samples.

Results

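The 35 genes described here make up the hypoxia pathway and glycolysis as they could be read in sorted endothelial cells of mouse bone marrow. They were taken from the 23464 gene rows of the deposited count table by matching Entrez gene identifiers to a list of symbols, and the rule itself sets no threshold on a measured value. By role they fell into 6 regulators of the hypoxia-inducible factors (HIFs), 2 transporters of glucose and lactate, 16 glycolytic enzymes and 11 other targets of HIF. Of these, 33 passed the filter on low counts and were tested, whereas *Aldoc* and *Car9* did not pass. The libraries came from endothelial cells sorted as CD31hi EMCNhi, the surface phenotype that marks type H capillaries in healthy bone, from BALB/c mice aged 8 to 10 weeks. The burdened mice carried 4T1.2 mammary tumour cells labelled with a red fluorescent protein. Their bones were dissected under that fluorescence into marrow holding tumour (met, 3 libraries) and adjacent marrow without it (non-met, 6 libraries), and age-matched mice without tumour gave the controls (2 libraries). The controls came from 2 pools, whose size is not given in the sources used here. The 9 libraries of burdened mice came from only 4 pools of 1 to 4 mice each, so that several libraries shared animals and P values measure the spread between libraries rather than between mice.

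In cells with enough oxygen, the prolyl hydroxylases encoded by the *Egln* genes modify the HIF alpha subunits, and the ubiquitin ligase that holds VHL then marks them for degradation. When oxygen is short the alpha subunits persist, pair with ARNT and bind the core motif of hypoxia response elements near glycolytic and other target genes. This control acts mainly on protein, so that transcript levels of the alpha subunits do not report HIF activity. Endothelial cells produce much of their ATP by glycolysis, and EPAS1 (HIF-2 alpha) is abundant in endothelium.

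Promoter windows of 300 bases, from 250 before to 50 after a transcription start, were available in RefSeq (GRCm38.p6) for 32 of the 35 genes, which had 48 windows in all. *Epas1*, *Bnip3l* and *Ndrg1* had none in the table. The HIF core was searched on both strands as ACGTG and as GCGTG, and the palindrome CACGTG was counted on each strand. ACGTG stood in 26 of the 48 windows (54.2%), compared with 19.6% of all windows in the table, and either form stood in 38 (79.2%), compared with 43.8%. A match is a string of letters and not a bound site. Many members were listed because they are HIF targets, so that a higher share was built into the choice of genes. Overlapping windows of a gene, such as those of *Aldoa* and *Eno1*, also counted the same match more than once. The 3 windows below belong to genes on which the results turn: *Ldha*, with the most matches of any window, *Hif1a*, and *Ankrd37*, which was read in control libraries only. Capitals mark the core on either strand, in sequences written 5′ to 3′ along the strand of the gene. They lie at chr7:46845554-46845853 on the plus strand (*Ldha*, 7 matches), chr12:73907617-73907916 on the plus strand (*Hif1a*, 3 matches) and chr8:45999801-46000100 on the minus strand (*Ankrd37*, 4 matches).
Ldha: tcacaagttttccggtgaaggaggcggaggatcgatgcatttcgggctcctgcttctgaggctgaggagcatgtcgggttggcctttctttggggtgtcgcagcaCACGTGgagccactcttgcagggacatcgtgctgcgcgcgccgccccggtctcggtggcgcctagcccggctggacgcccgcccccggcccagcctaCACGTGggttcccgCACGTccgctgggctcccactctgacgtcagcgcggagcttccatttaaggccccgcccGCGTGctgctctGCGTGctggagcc
Hif1a: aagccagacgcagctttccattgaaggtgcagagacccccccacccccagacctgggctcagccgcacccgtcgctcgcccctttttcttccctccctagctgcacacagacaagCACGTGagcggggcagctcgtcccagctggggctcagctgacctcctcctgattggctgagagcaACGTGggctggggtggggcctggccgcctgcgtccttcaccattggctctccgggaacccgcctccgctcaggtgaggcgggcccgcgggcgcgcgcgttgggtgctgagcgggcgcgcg
Ankrd37: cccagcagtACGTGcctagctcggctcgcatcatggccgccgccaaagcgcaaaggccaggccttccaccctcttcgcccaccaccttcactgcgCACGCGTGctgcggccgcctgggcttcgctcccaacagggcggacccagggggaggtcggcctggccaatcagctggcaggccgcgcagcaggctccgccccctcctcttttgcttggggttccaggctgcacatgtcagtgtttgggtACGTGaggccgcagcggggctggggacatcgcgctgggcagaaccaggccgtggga

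Between 733342 and 19539761 counts were assigned to genes in a library. A floor of 3 reads stood for 0.147 CPM (counts scaled to a common library size) in the deepest, control 1, and for 5.43 CPM in the shallowest, non-met 4, and such floors cover counting error only. All 10 endothelial markers were detected in each group, with summed levels of 7969 to 12081 CPM in control, 9756 to 15983 in non-met and 13156 to 15876 in met libraries. Granulocyte markers summed to 80.2 and 358.6 CPM in controls, 397.2 to 5271 in non-met and 35.4 to 203.5 in met, where 6 of the 12 markers had no read (*Ltf*, *Mpo*, *Elane*, *Prtn3*, *Mmp8* and *Cebpe*). Transcripts of early response and heat shock genes, which cell handling can raise, summed to 10043 and 11346 CPM in controls, 5992 to 9756 in non-met and 3293 to 6550 in met, and all 10 were detected in each group. Markers of osteolineage, stromal and mural cells summed to 4030 and 10600 CPM in controls, 1137 to 3763 in non-met and 488.7 to 2582 in met, with *Bglap* alone at 0 reads throughout. The 7 epithelial markers of the tumour line summed to 0.831 and 19.5 CPM in controls, 1.44 to 136.8 in non-met and 10.9 to 70.5 in met, and *Cldn7* had no read in controls. The part these differences have in the results below was not tested.

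No member passed the test in any of the 3 comparisons (voomLmFit, Benjamini-Hochberg adjusted P under 0.05 over 11949 genes). Across all genes tested, 0.418% were called between met and non-met, 1.2% between met and control and 0.636% between non-met and control. The other tests likewise called no member, although they called genes elsewhere: limma-trend called 2, 9 and 8 genes in the 3 comparisons, the edgeR quasi-likelihood test 17, 10 and 14, and DESeq2 326, 228 and 266, with 3 members left without an adjusted P by DESeq2. At an unadjusted P under 0.05 in voomLmFit, 1 of 33 members differed between met and non-met (7.24% of all genes), 9 between met and control (14.1%) and 5 between non-met and control (17%). For met against control the count of members called was not stable: 4 were called without sample weights and 5 without a filter on low counts. What follows is therefore a description of levels, with the libraries that separated and those that did not.

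In RPKM, read counts scaled for both gene length and depth so that genes can be compared, the highest members were *Pkm*, with a median of 261 RPKM over the 11 libraries, *Ndrg1* (234.6), *Epas1* (230.6), *Ldha* (136.4) and *Aldoa* (121.3). *Ddit4* (93.3), *Hif1a* (69.7) and *Gpi1* (67.7) came next. The ranges of neighbouring genes in this order overlapped, so that adjacent ranks did not differ beyond their spread. At the lower end, *Higd1a*, *Bnip3*, *P4ha2*, *Hk2*, *Car9*, *Adm*, *Aldoc* and *Ankrd37* had medians under 1 RPKM. The members read in every library were 21, and 14 had no read in at least 1 library. The 3 most abundant members varied least: over the 11 libraries the SD of log2 RPKM was 0.36 for *Epas1*, 0.40 for *Pkm* and 0.43 for *Ndrg1*, compared with 2.71 for *Slc2a1*, 2.81 for *Bnip3* and 3.46 for *Vhl*. Within the 6 non-met libraries the median SD of log2 CPM was 1.85 over the members tested and 2.72 over all genes tested. The 35 genes together took 0.571% to 0.626% of all counts in met libraries, 0.379% to 0.556% in non-met and 0.462% and 0.5% in controls, so that met lay above the rest. As a share of the counts in named genes, met libraries had 0.588% to 0.649% and overlapped non-met, which had 0.449% to 0.592%.

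**Figure D1:**
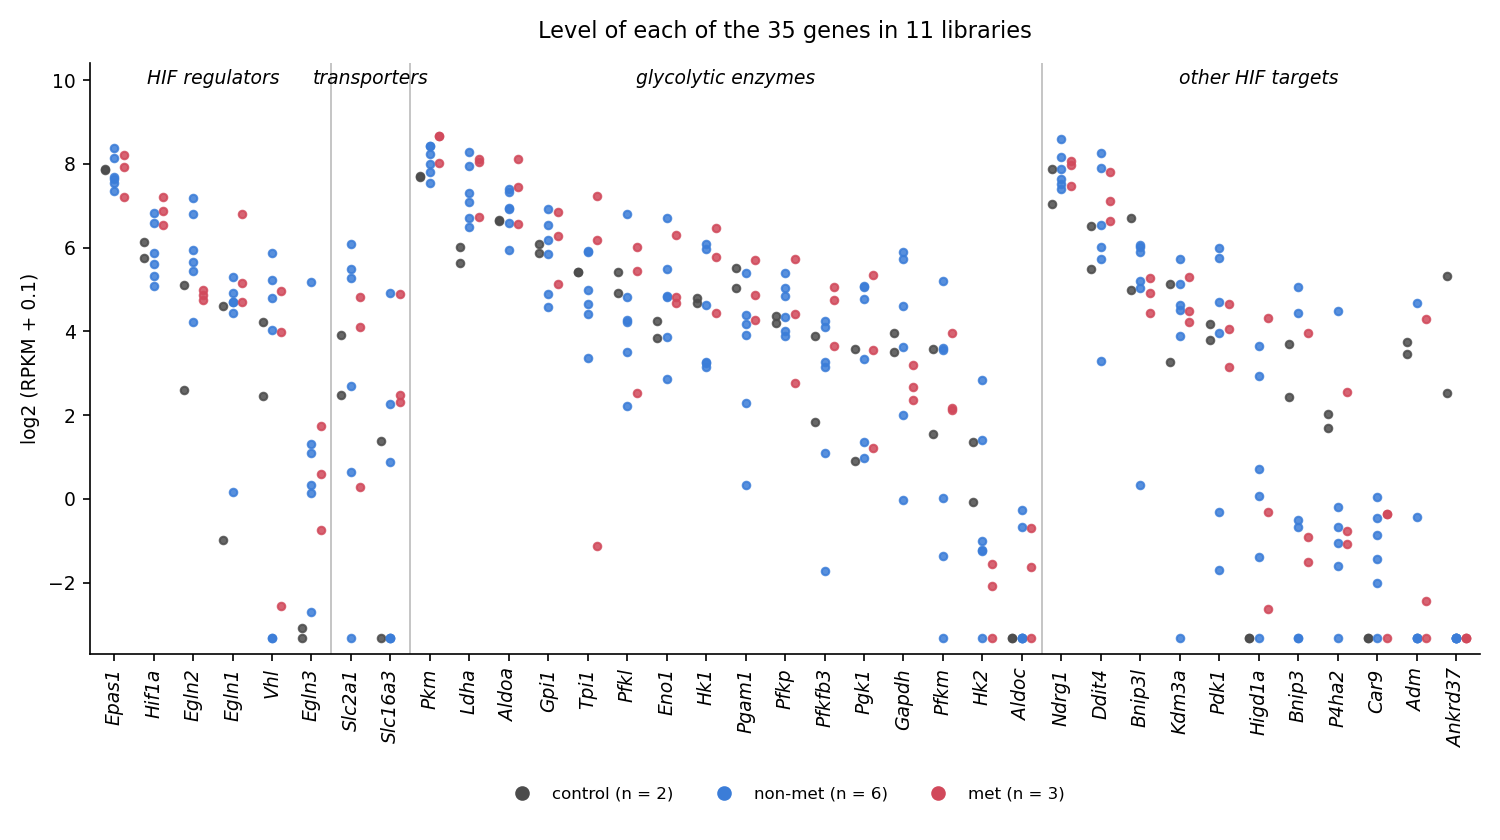
Level of each of the 35 genes in every library, as log2 of RPKM with 0.1 added (y axis), grouped by role and ordered by median within a role. Points are libraries, coloured by group, and points at the bottom are libraries without a read. Epas1, Pkm and Ndrg1 lie in a narrow band, whereas Vhl, Bnip3 and Adm spread from no read to high levels.

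Among the 6 HIF regulators listed here, *Hif1a* had the smallest P between met and non-met. This gene (chromosome 12, 73901324 to 73947554) encodes HIF-1 alpha, the subunit most tied to glycolytic targets. It stood at 561, 440 and 707 CPM in met libraries 1 to 3, at 332 and 254 CPM in controls, and at 162.2 to 540 CPM with a median of 256.7 in non-met. Met lay above both controls but overlapped non-met, where libraries 3 and 6 reached 540 and 457 CPM. The log2 fold change was 1.16 ± 0.36 (SE) between met and non-met (adjusted P = 0.322, voomLmFit) and 0.95 ± 0.28 between met and control (adjusted P = 0.0859). Limma-trend, without weights, gave 0.99 (adjusted P = 0.911) and 0.94 (adjusted P = 1). Within the pools that gave both kinds of library, met exceeded the mean of non-met by 0.93 in burdened pool 2 and 1.60 in pool 4 on the log2 CPM scale, but lay below it in pool 3 (-0.30). For the same comparison, a fit with the mouse pool as a fixed replicate block gave 0.57, and one with the pool as a random block gave 1.18.

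*Epas1* (chromosome 17, 86753864 to 86833410) encodes HIF-2 alpha and was the steadiest regulator. It was read at 1260 and 1230 CPM in controls, 794, 1300 and 1580 CPM in met, and 878 to 1785 CPM with a median of 1084 in non-met, and the 3 groups overlapped. The fitted difference was 0.15 ± 0.13 between met and non-met (adjusted P = 0.809) and 0.25 ± 0.07 between met and control (adjusted P = 0.0844), and limma-trend gave -0.08 for the latter. The ratio of both genes was examined within libraries, which needs no scaling between them. *Epas1* exceeded *Hif1a* in every library. The ratio of RPKM was 3.37 and 4.31 in controls, 1.26, 2.64 and 1.99 in met, and in non-met it was 3.39, 7.03, 2.94, 4.19, 5.42 and 1.71 for libraries 1 to 6. All met values lay under both controls, and of the non-met libraries only library 6 was lower than met 2 or met 3. On the log2 scale the means were 0.91 ± 0.54 (SD, n = 3) in met, 1.90 ± 0.72 (n = 6) in non-met and 1.93 ± 0.25 (n = 2) in control. The difference between met and non-met was -0.99 (exact two-sided permutation test over 84 splits, P = 0.0833, adjusted P = 0.655 over 15 ratio tests), and the smallest P this design allows is 0.0119. In the 3 pools that gave both kinds of library the ratio was lower in met, by -1.46, -0.16 and -1.07. Against control the difference was -1.02 (exact permutation test, P = 0.2, where 0.1 is the smallest possible).

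**Figure D2:**
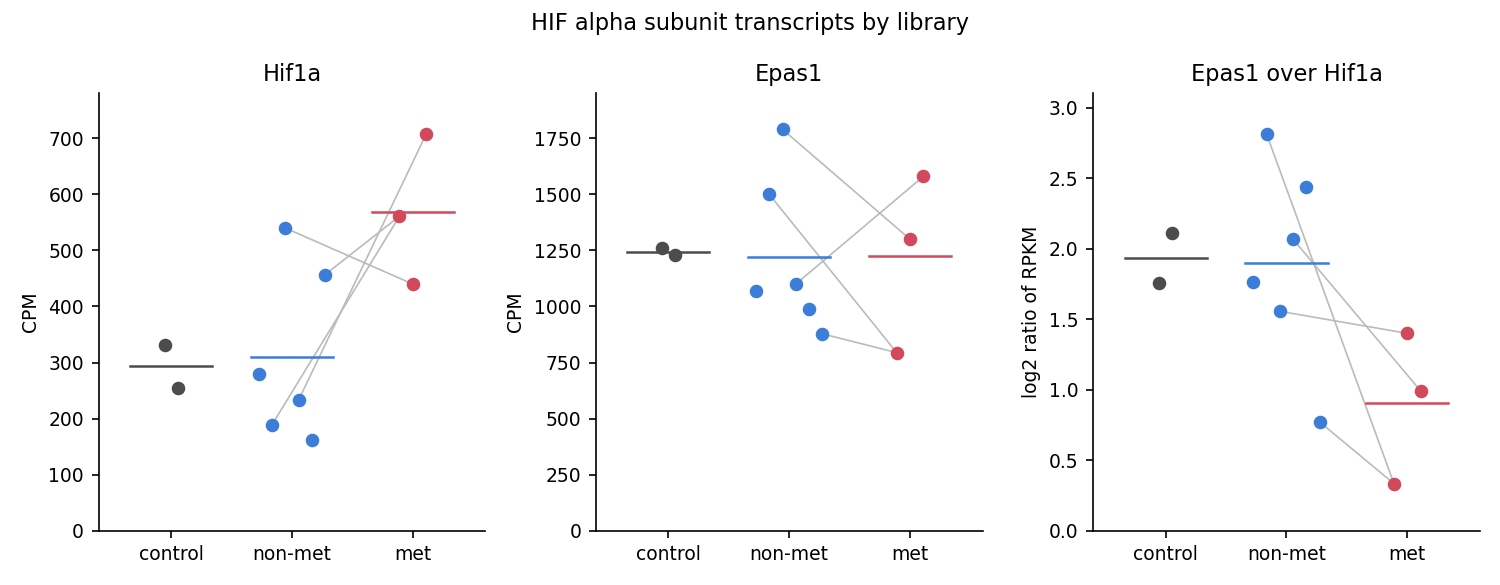
Hif1a and Epas1 in CPM, and the log2 ratio of their RPKM, by group. Points are libraries, horizontal lines are group means, and grey lines join met and non-met libraries of the same mouse pool. Hif1a is higher in met than in both controls, Epas1 overlaps throughout, and the ratio is lowest in met 1.

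The prolyl hydroxylases differed in how evenly they were read. *Egln1* (PHD2), the main oxygen sensor of this family, stood at 393, 91.9 and 125 CPM in met, 85.4 and 1.42 in controls, and 3.62 to 136.8 with a median of 90.7 in non-met. Met lay above both controls without overlap (log2 fold change 4.86 ± 2.18, adjusted P = 0.304), but the size of that difference rested on control 2, with 8 reads: without it the log2 fold change was 0.62. *Egln2* (PHD1) was at 61.7, 56.7 and 66.7 CPM in met, 72.3 and 12.6 in controls and 38.9 to 307 in non-met, with overlap in both comparisons. In the 3 shared pools *Egln1* was higher and *Egln2* lower in met than in non-met. *Egln1* accordingly held 78.9%, 48.0% and 50.4% of the summed RPKM of the 3 *Egln* genes in met, compared with 1.58% to 55.3% in non-met and 41.4% and 6.31% in controls. *Egln3* (PHD3), itself a HIF target, had 1 read and 0 reads in controls. It had 3, 20 and 76 reads in met (1.32, 3.79 and 8.72 CPM) and 1 to 183 reads in non-met (0.145 to 97.0 CPM, median 4.27). Both groups lay above both controls, by a fitted 5.44 ± 2.61 in met (adjusted P = 0.350) and 5.73 ± 2.19 in non-met (adjusted P = 0.192), estimates that depend on how so few control reads are offset. In met 1 and in non-met 2, 4 and 6 the gene had 3 reads or fewer. *Vhl* ranged from 0 reads in non-met 2 and 5 to 160 CPM in non-met 6, and its 3 groups overlapped.

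Of the transporters, *Slc2a1*, which encodes the glucose carrier GLUT1, was read at 44.0, 72.6 and 2.87 CPM in met, 14.0 and 38.7 CPM in controls, and 0 to 172.8 CPM with a median of 57.3 in non-met. The groups overlapped, and the fitted difference between met and non-met was 0.09 ± 1.99. *Slc16a3*, which encodes the lactate exporter MCT4, had reads in all met libraries (76.2, 14.2 and 12.6 CPM) and at 6.4 CPM in control 1, and none in control 2 and in non-met 1, 4 and 5. The other non-met libraries had 12.2, 77.5 and 4.44 CPM. Met lay above both controls (6.63 ± 2.54, adjusted P = 0.195, and 1.59 without control 2) and overlapped non-met (3.03 ± 1.85, adjusted P = 0.751), the widest fitted difference of the 33 members between met and non-met.

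The glycolytic enzymes showed no common direction between met and non-met. Of the 15 tested, 9 had a fitted log2 fold change above 0 and 6 below, with a median of 0.32, while the median over all genes was 0.08. *Ldha* (chromosome 7, 46842274 to 46855627), which encodes the subunit of lactate dehydrogenase that favours lactate formation, separated burdened from healthy mice. It was read at 125 and 95.5 CPM in controls, at 512, 530 and 206 CPM in met, and at 173.9 to 600.6 CPM with a median of 284 in non-met. All 9 libraries of burdened mice lay above both controls. The log2 fold change was 1.42 ± 0.62 for met against control (adjusted P = 0.286) and 1.10 ± 0.65 for non-met against control (adjusted P = 0.364), and that between met and non-met was 0.32 ± 0.40. The exact permutation test gave P = 0.2 and P = 0.0714 against control, with 1 as the adjusted P for non-met. Granulocyte markers summed to more in all 6 non-met libraries than in both controls, and to no more in any met library than in the higher of the controls, while monocyte and macrophage markers (191.8 to 711.6 CPM in non-met, 49.3 to 288.5 in met, 77.2 and 109.5 in controls) and the mitochondrial share of counts (6.72% to 17.8%, 4.33% to 9.56%, and 5.40% and 6.20%) were also higher in all 6 non-met libraries than in both controls. Their part in the *Ldha* levels was not tested.

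*Pkm*, which encodes the muscle-type pyruvate kinases, was at 1050, 1060 and 678 CPM in met, 536 and 543 in controls, and 482.4 to 892.2 with a median of 725.9 in non-met. Its met libraries lay above both controls, by 0.51 ± 0.13 (adjusted P = 0.0555), the smallest adjusted P of any member. *Eno1* also separated met from control (140, 45.5 and 49.9 against 25.3 and 33.3 CPM, adjusted P = 0.790). *Hk2*, the inducible hexokinase, was lower in met than in controls: 1.32, 0.758 and 0 CPM (3, 4 and 0 reads) against 4.64 and 13.6 CPM, and 0 to 38.7 CPM in non-met (-4.11 ± 2.42 against control, adjusted P = 0.485, and -2.42 ± 2.11 against non-met, adjusted P = 0.816). *Hk1* was the main hexokinase in every library, with 99.7% to 100% of the RPKM of both in met, 91.8% and 96.8% in controls and 57.3% to 100% in non-met. With so few reads of *Hk2* in met, the log2 ratio of *Hk1* to *Hk2* there depends on the prior count and gives no level. *Pfkfb3*, whose product makes the activator of phosphofructokinase and drives glycolysis in sprouting endothelium, stood at 142, 65.2 and 174 CPM in met, 78.3 and 18.2 in controls, and 1.06 to 99.5 with a median of 48.5 in non-met. It overlapped in both comparisons (1.83 ± 1.10 between met and non-met, adjusted P = 0.751).

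The 3 phosphofructokinase genes shared their summed RPKM unevenly and without a pattern by group. *Pfkl* held between 34.2% and 71.7% in met libraries and between 21.7% and 58.5% in non-met. *Pfkp* held between 23.5% and 47.5% in met, and from 22.0% up to 76.9% in non-met, and the share of *Pfkm* did not exceed 25.6% in any library. *Hk1*, *Gpi1*, *Aldoa*, *Tpi1* and *Pgam1* overlapped between met and the other groups, and *Tpi1* ran from 5 reads in met 3 (0.574 CPM) to 239 CPM in met 2. *Aldoc* had at most 4 reads in a library.

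**Figure D3:**
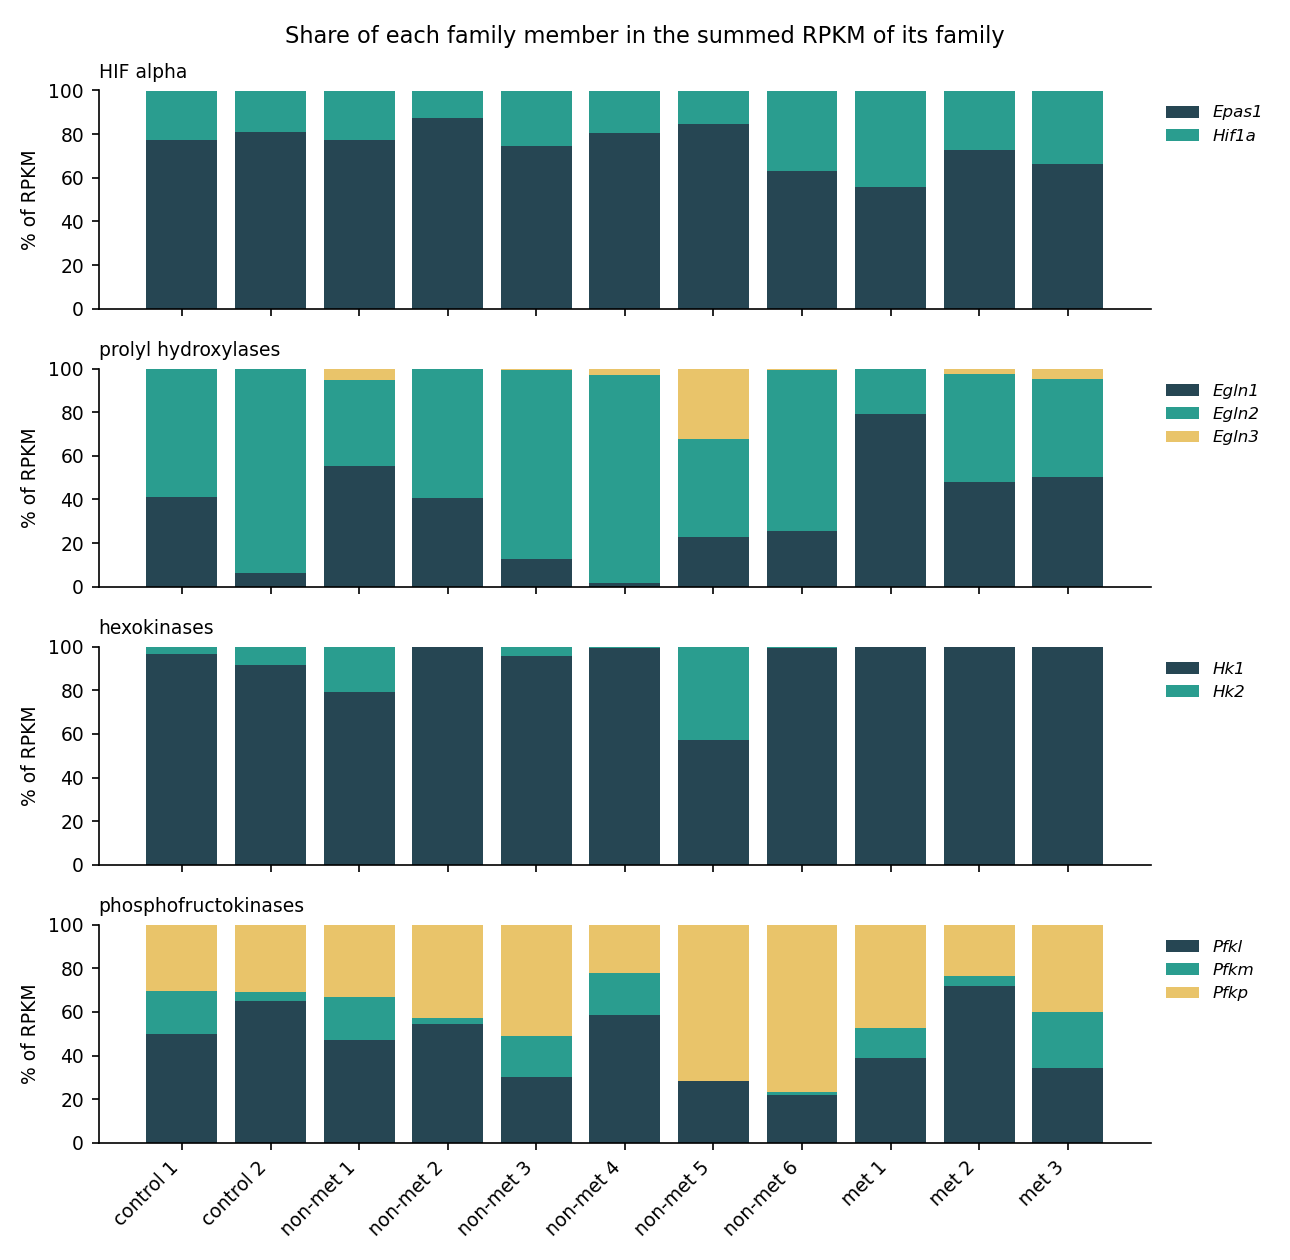
Share of each member in the summed RPKM of its family, in percent, for the HIF alpha subunits, the prolyl hydroxylases, the hexokinases and the phosphofructokinases. Each bar is 1 library. Epas1 is the larger share everywhere, Egln1 reaches 78.9% in met 1, and the share of Hk2 is largest in non-met 5 and non-met 1.

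Several enzymes cannot be read with confidence, since identical stretches occur in other genes. Of the 75-base stretches in their transcripts, 52.8% of *Pgk1*, 34.9% of *Pgam1*, 23% of *Eno1* and 22.6% of *Gapdh* also occur elsewhere, for *Gapdh* in 121 other genes, 113 of them pseudogenes. *Gapdh*, which encodes the dehydrogenase in the middle of the pathway, was listed at 19.0 and 13.8 CPM in controls, 6.17, 11.2 and 7.69 in met, and 1.08 to 73.2 with a median of 22.3 in non-met. Met lay under both controls (-0.90 ± 2.21, adjusted P = 0.906). With the reads of its copies added, the order changed: 40.7 and 98.9 CPM in controls and 16.7, 39.8 and 74.6 in met overlapped. *Pgk1*, the kinase that makes the first ATP of glycolysis, was at 21.2 and 3.18 CPM in controls, 3.96, 72.6 and 20.9 in met, and 3.34 to 61.0 with a median of 33.5 in non-met, with overlap throughout. *Eno1* had fewer reads than its copy *Eno1b* in 9 of 11 libraries.

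**Figure D4:**
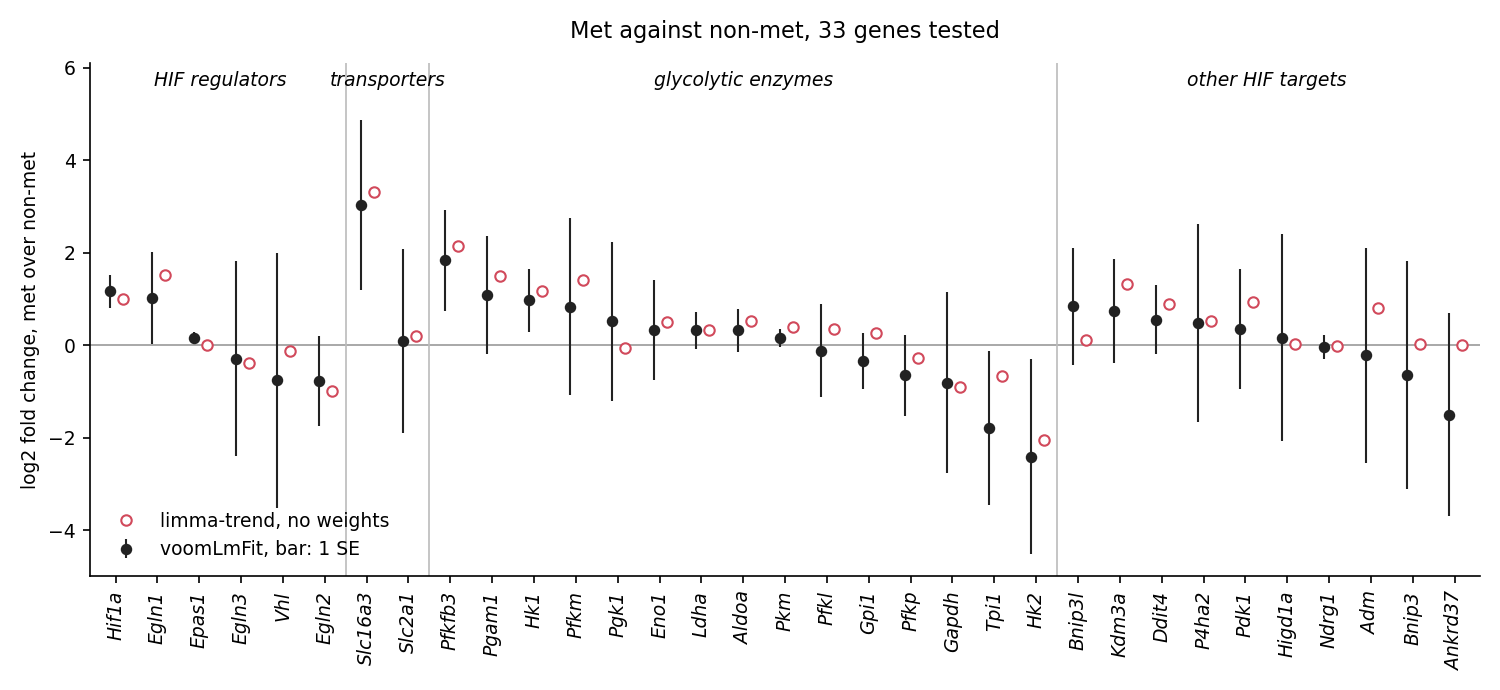
Log2 fold change of met over non-met for the 33 members tested, grouped by role. Black points are voomLmFit estimates with bars of 1 SE, and open points are limma-trend estimates without sample weights. Hif1a, Epas1, Egln1, Slc16a3, Hk1 and Pfkfb3 lie above 0 by more than 1 SE, and Slc16a3 is highest. Hk2 and Tpi1 lie below 0 by more than 1 SE. No member passed the test.

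Of the other HIF targets, *Ankrd37* (chromosome 8, 45996908 to 46000414), a small ankyrin repeat gene known as a HIF-1 target, was read in controls only. Control 1 had 105 reads (5.13 CPM) and control 2 had 205 reads (36.3 CPM), and none of the 9 libraries of burdened mice had a read. Bounds were set on group means, with the 3-read floors of a group averaged. Compared with the control mean, met was at least 27.8-fold lower and non-met at least 10.7-fold lower. These bounds do not hold for every library, since the floor of 5.43 CPM in non-met 4 lay above the level in control 1. Control 2 carried these bounds, and with control 1 alone they were 6.89-fold and 2.66-fold. *Ankrd37* did not pass the test (adjusted P = 0.137 and 0.134, voomLmFit, and 0.442 and 0.188, limma-trend). Without the filter on low counts it was among the 5 members called for met, a call that depends on how 0 reads are offset. The exact permutation P was the smallest possible in each case, 0.1 and 0.0357. With reads in controls only, the gene passed the filter through the group where it was high, so these tests against control give no independent support. Of its exon bases, 349 (22.7%) overlap *Lrp2bp* and 57 overlap *Ufsp2*, both on the opposite strand. *Lrp2bp* had no read in any library and *Ufsp2* had 478 and 49 reads in controls and 0 to 266 in the rest. *Adm*, which encodes the vasodilator adrenomedullin, was at 18.3 and 15 CPM in controls. It reached 35.2 CPM in non-met 3 and 26.9 CPM in met 1, and the other 7 libraries of burdened mice had 1 read at most (-4.14 ± 1.98 for non-met against control, adjusted P = 0.291). The controls, in which both genes were read, also had the highest sums of early response and of stromal and mural transcripts.

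*Higd1a*, whose product sits in the mitochondrial inner membrane, had no read in controls. Met libraries had 3, 195 and 1 reads and non-met had 0 to 130, with 37.0 CPM in met 2 and 23.4 CPM in non-met 1 as the highest. Non-met 4, the shallowest library, had none. The order of met 3, non-met 4 and the controls rested on 0 or 1 read and on depth, and neither group passed the test against control (adjusted P = 0.398 for met and 0.263 for non-met). *Ndrg1*, a stress-responsive gene, was at 379 and 678 CPM in controls, 780, 514 and 728 in met and 485 to 1115 in non-met. Its fitted difference was 0.75 ± 0.19 for met (adjusted P = 0.0572) and 0.79 ± 0.21 for non-met against control (adjusted P = 0.0675), although the libraries overlapped and the unweighted differences were 0.39 and 0.41. Both fitted values rested on control 1, without which they were 0.016 for met and -0.0037 for non-met. *Ddit4*, an inhibitor of mTORC1 signalling, lay at 234, 168 and 378 CPM in met, above 155 and 74.8 CPM in controls (1.24 ± 0.72, adjusted P = 0.469).

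The mitophagy receptors *Bnip3l* and *Bnip3* differed in level rather than by group. *Bnip3l* was read at 102 and 340 CPM in controls, 96.5, 125 and 70.2 in met, and 3.77 to 216.8 with a median of 154.8 in non-met, and exceeded *Bnip3* per length in every library. *Bnip3* had no read in non-met 2 and 6 and stood at 57.9 CPM in non-met 4, and its transcript shares 23% of its 75-base stretches with other genes, compared with 16.9% for *Bnip3l*. *Car9*, the carbonic anhydrase often used as a marker of hypoxic tumour, had 3, 7 and 0 reads in met, none in controls and 0 to 4 in non-met. *Pdk1*, which restrains entry of pyruvate into the mitochondria, ranged from 1.06 to 323.2 CPM in non-met and overlapped in all comparisons, as did *Kdm3a*, *P4ha2* and *Bnip3l*.

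**Figure D5:**
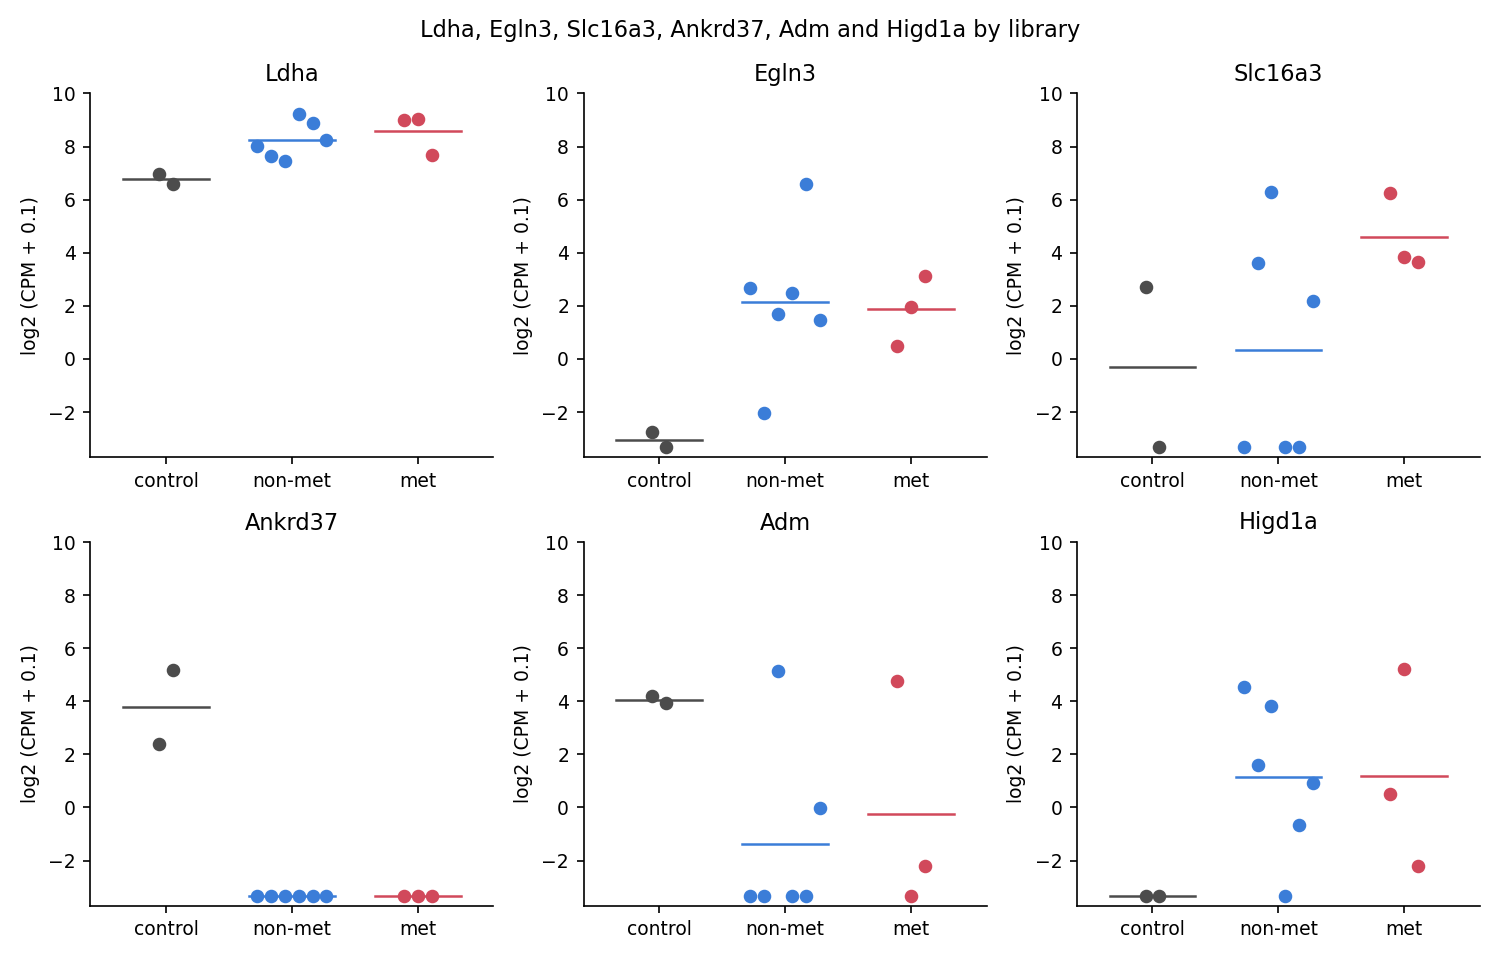
Level of Ldha, Egln3, Slc16a3, Ankrd37, Adm and Higd1a by group, as log2 of CPM with 0.1 added (y axis). Points are libraries, lines are means of the log values, and points at the bottom had no read. Ldha is higher and Ankrd37 lower in all 9 libraries of burdened mice than in both controls, whereas Adm reaches the control level in non-met 3 and met 1.

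Counted over all members, 9 of 33 lay higher and 3 lower in every met library than in both controls, where 8.43% and 12.3% of all genes did so. Those higher were *Hif1a*, *Egln1*, *Egln3*, *Slc16a3*, *Eno1*, *Pkm*, *Ldha*, *Ddit4* and *Higd1a* (by 1 read in met 3), and those lower were *Hk2*, *Gapdh* and *Ankrd37*. For non-met against control, *Egln3* and *Ldha* lay higher without overlap and *Ankrd37* lower (for *Egln3* by 1 read in non-met 2 against 1 read in the deeper control 1, both under the floor), where 1.26% and 5.03% of all genes did so. Between met and non-met no member separated in either direction, where 1.54% of all genes were higher and 0.444% lower in every met library. The comparisons share their libraries and are not independent of one another. The median fitted difference over the members was 0.16 for met against non-met, 0.25 for met against control and -0.19 for non-met against control, and over all genes it was 0.08, -0.09 and -0.33.

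Other genes of the pathways were followed through lists of their own. Between met and non-met none of 10 tested regulators of HIF, 16 further HIF targets, 12 further glycolysis genes and 9 genes of pyruvate dehydrogenase and its kinases passed the test. Against control, none of the HIF regulators or the pyruvate dehydrogenase genes passed in met or non-met, and of the 16 further HIF targets 1 fell in non-met, where 0.636% of all genes were called in either direction. This was *Lox*, which encodes a collagen crosslinking oxidase. It was at 53.2 and 250 CPM in controls, at 21.1 CPM in non-met 1 and at 0 in the other non-met libraries (-7.35 ± 1.41, adjusted P = 0.0118). Limma-trend and the quasi-likelihood test did not call it (adjusted P = 0.494 and 0.866). In met it was read at 56.8 CPM in met 2 and at 1 read in each of the others, and it did not pass (-5.10 ± 2.38, adjusted P = 0.328). Osteolineage, stromal and mural markers were likewise highest in control 2 (10600 CPM) and next in control 1 (4030 CPM), and their part in the *Lox* difference was not tested.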

How the data were processed

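RNA was measured in 11 libraries of sorted endothelial cells. Per the study's methods, the authors prepared libraries with a low-input full-length kit, aligned paired 75 base reads to mm10 with Rsubread and assigned them to genes with featureCounts, using the annotation that ships with it. The deposited table holds raw counts without normalisation, and whether counting used strand is not given in the sources used here. Groups and mouse pools were taken from the labels. The study's methods speak of 3 control pools and of a library removed for poor alignment, and 2 control libraries are analysed here.

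Of 27179 rows, 1886 without a name, 1794 predicted genes and 35 ribosomal rows were left out (1.94% to 15.7% of all reads counted per library). Low genes were removed by filterByExpr of edgeR 4.0.16 (minimum count 10, minimum total 15), which left 11949, and scaled by TMM. The main test was voomLmFit with sample weights (0.43 to 1.96), the test the study states, on all 11 libraries with 3 groups and no covariate, with limma 3.58.1, R 4.3.3 and two-sided P adjusted over all genes tested. Limma-trend, the quasi-likelihood test and DESeq2 1.42.0 were alternatives, and the scripts were tested on simulated data. CPM used TMM-scaled library sizes, RPKM the gene lengths of the deposited table, and log2 values a prior count of 2. Single values were tested by exact permutation over 84, 10 and 28 splits.

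Members, lists and tests were chosen with earlier results of these data known. Values in each control and met library, and for non-met mostly the lowest, median and highest, are given for the members fixed by name (*Hif1a*, *Epas1*, *Egln3*, *Slc2a1*, *Hk2*, *Pfkfb3*, *Pgk1*, *Ldha*, *Car9* and *Gapdh*), for members called by voomLmFit or limma-trend, of which there were none, and for the 2 members of each role with the largest fold change between met and non-met (for *Ankrd37* a fitted value with no read behind it in either group). Others with values, such as *Pkm*, *Egln2*, *Eno1*, *Adm*, *Higd1a*, *Ndrg1* and *Ddit4*, were chosen after their values were seen. Libraries of one mouse pool hold the same animals per the labels and are paired by pool. Deviations of met and non-met libraries of the same pool from their group means correlated at -0.034 to 0.013 across genes, which are not independent replicates. The comparisons of the further glycolysis genes with control are not reported here.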

Additional observations from a re-analysis of the deposited data

Results flagged for a closer look

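In the 6 non-met libraries, 38 sets of values (33 members and 5 ratios) were examined for a library set apart from the rest, and 5 held one. Chance sets apart about 1 in 20. On the log2 CPM scale *Egln1* was at 1.99 in non-met 4, where the others lay between 6.25 and 7.10. *Bnip3l* was at 2.05 in non-met 2, with the others at 6.72 to 7.76. *Kdm3a*, a histone demethylase, was at -1.49 in non-met 5, where it had no read, and at 6.18 to 8.01 in the others. *Adm* was at 5.15 in non-met 3 and at -1.49 to 0.32 in the others. *P4ha2*, a collagen prolyl hydroxylase, was at 5.72 in non-met 1 and at -1.49 to 1.12 in the others. The 5 values came from 5 different libraries, so that no library stood apart in more than 1 of them. Non-met 4, in which *Egln1* was low, was the shallowest library.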

How the results depend on the processing

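No member was called between met and non-met under any of 26 alternatives. Against control, members were called under some settings although not in the main test: for met 4 without sample weights (*Hif1a*, *Epas1*, *Pkm* and *Ndrg1*), 2 with RLE size factors, 5 without a filter, and 0 to 4 when each library was left out, with 4 without control replicate 2, 3 without non-met replicate 3, 2 without non-met replicate 2 and 1 each without non-met replicate 1, met replicate 1 or met replicate 3. For non-met it was 1 (*Ndrg1*) under each of the first 3 settings, and 0 to 1 with each library left out. The cause was not tested. RLE size factors moved the median of all genes by -0.17 between met and non-met, and library size alone moved it by -0.14 for met and -0.21 for non-met against control.

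Some directions turned, also for well-read genes such as *Bnip3l* and *Ndrg1*. Between met and non-met, *Epas1* was at -0.0043 with limma-trend, -0.14 with DESeq2 and -0.38 with the pool as replicate block, *Egln3* at 0.30 with that block and 1.11 in the 8 deepest libraries, and *Gapdh* at 0.53 in those 8. *Slc2a1* was at -0.77 (quasi-likelihood), -0.99 (DESeq2), -0.12 (RLE), -0.52 (pool block), -0.76 (libraries of a pool summed) and -0.0001 (only these groups). *Pgk1* was at -0.069, -0.0075 and -0.18 with limma-trend, quasi-likelihood and DESeq2, and *Bnip3l* at -0.53 and -0.73 with the latter pair. Between met and control, *Epas1* was at -0.081, -0.024 and -0.12 with these 3 tests. With each library left out, ranges crossed 0 between met and non-met for *Epas1* (-0.22 to 0.38), *Egln3* (-1.12 to 0.34), *Slc2a1* (-1.24 to 1.89), *Pgk1* (-1.10 to 1.16) and *Bnip3l* (-0.78 to 1.41), for *Epas1* between met and control (-0.12 to 0.35) and for *Ndrg1* between non-met and control (-0.0037 to 0.86, the lowest without control replicate 1).

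The log2 ratio of *Epas1* to *Hif1a* stayed lower in met than in non-met under its 14 alternatives, from -1.24 to -0.71, with -0.90 as the mean within pools and -1.09 with libraries of a pool summed, and unadjusted exact permutation P from 0.0286 (pools summed, which treats met and non-met sums of the same mice as independent) to 0.25 (without met replicate 1). Between non-met and control it turned to 0.065 with pools summed (-0.21 to 0.20 with each library left out). *Bnip3l* over *Bnip3* turned to -0.34 between met and non-met with a prior count of 0.5 (-0.86 to 1.92 with each library left out), and *Pfkm* over *Pfkp* between met and control ran from -0.92 to 1.24 with each library left out. Neither the fixed nor the random pool block changed a call. At the depth of non-met 4, 1 read stood for 1.81 CPM, so that members below this level could not be told from absence there. The settings that added reads of copies or kept the 8 deepest libraries alone were chosen after seeing the data.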
